A study of Rattus norvegicus with 12 samples.

Results

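The SPARC family groups secreted calcium-binding glycoproteins that share a follistatin-like domain and an extracellular calcium-binding domain. Its 8 genes, Sparc, Sparcl1, Smoc1, Smoc2, Spock1, Spock2, Spock3 and Fstl1, were chosen by name and read in the urinary bladder of the rat after loss of its nerve supply. Each was represented by 1 probe set that carries no other gene symbol, so all 8 were measured, among 18166 genes in all. The samples were whole bladders of female Sprague Dawley rats of about 3 months. In the 6 denervated samples the ganglia supplying the bladder had been frozen on both sides 10 days before, and the labels also name pelvic (pelvicus) freezing. The 6 sham samples came from rats that had surgery without the freezing, and the labels give no time for them. Total RNA of each sample was hybridised to 1 array. Whether the 12 samples came from as many animals is not stated, and p-values then measure only the spread between samples, which may be technical.

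SPARC (osteonectin) is a matricellular protein: it binds collagens and regulates the assembly of the matrix and the contact of cells with it, without being a structural fibre itself. Its closest relative, SPARCL1 or hevin, is best known from blood vessels, brain and muscle, and the testicans (Spock genes) are proteoglycans that were described first in testis and brain. The SMOC proteins lie in and near basement membranes and modulate signals of bone morphogenetic proteins, and FSTL1 is a secreted glycoprotein made by connective tissue and muscle cells that can be induced by TGF-beta.

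The bases before the start sites of the 5 genes that changed after denervation are shown first, so that members that rose can be set beside members that fell. The sequences are the 250 bases upstream of the start in RefSeq's annotation of assembly GRCr8, on the gene's strand and 5′ to 3′, and 7 of the 8 genes had an entry. Capitals mark matches on either strand to a TATA box (TATAAA), a GC box (GGGCGG), an AP-1 site (TGANTCA), a TEAD site (GGAATG), a RUNX site (TGTGGT), the purine repeat GGAGGA or the CArG box of serum response factor. Sparc and Fstl1 rose and the others fell. Sparc lies at chr10:40038817-40039066 on the minus strand, Fstl1 at chr11:76454054-76454303 on the minus strand, Sparcl1 at chr14:5937234-5937483, Smoc1 at chr6:106432356-106432605 and Spock2 at chr20:28580012-28580261, with Sparcl1, Smoc1 and Spock2 on the plus strand.
Sparc: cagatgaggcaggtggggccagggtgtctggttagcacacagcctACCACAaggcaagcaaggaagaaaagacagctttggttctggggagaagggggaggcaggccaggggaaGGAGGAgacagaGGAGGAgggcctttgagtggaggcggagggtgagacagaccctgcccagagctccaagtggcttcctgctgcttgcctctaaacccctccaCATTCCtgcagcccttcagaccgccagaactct
Fstl1: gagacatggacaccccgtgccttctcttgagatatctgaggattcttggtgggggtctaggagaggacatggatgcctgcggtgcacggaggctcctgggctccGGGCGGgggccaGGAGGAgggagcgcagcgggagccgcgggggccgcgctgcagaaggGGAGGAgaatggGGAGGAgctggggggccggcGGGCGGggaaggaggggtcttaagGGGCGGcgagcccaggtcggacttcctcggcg
Sparcl1: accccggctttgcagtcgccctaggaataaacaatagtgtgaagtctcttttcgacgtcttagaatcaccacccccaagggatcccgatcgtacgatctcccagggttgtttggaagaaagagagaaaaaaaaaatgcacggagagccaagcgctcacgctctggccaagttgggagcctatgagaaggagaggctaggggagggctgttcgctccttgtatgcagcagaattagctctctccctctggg
Smoc1: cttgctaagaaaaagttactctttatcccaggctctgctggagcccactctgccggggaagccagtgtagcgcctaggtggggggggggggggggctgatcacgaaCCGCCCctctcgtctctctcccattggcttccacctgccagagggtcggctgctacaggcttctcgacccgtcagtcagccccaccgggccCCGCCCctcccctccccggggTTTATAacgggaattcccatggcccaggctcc
Spock2: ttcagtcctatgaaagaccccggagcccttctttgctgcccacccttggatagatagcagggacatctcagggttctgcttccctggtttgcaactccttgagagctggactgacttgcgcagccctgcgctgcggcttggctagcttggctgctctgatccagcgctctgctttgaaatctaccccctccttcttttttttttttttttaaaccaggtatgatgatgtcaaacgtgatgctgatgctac

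The purine repeat, of a kind for which the Sparc promoter is known, was found in the windows of both genes that rose and in none of the 3 that fell. It is common, being present in 27.6% of the 27457 promoter windows of the table, and Spock3, which was not called, holds it too. Sparc also held a TEAD match (11.8% of windows) and a RUNX match (14.1%). Fstl1 held 3 GC boxes, where 32.4% of windows held 1 or more. Smoc1 held 2 GC boxes and, shortly before the start, a match to the letters of the TATA box (13.1%). That match lies on the strand opposite to the gene, so the printed window reads TTTATA. The windows of Sparcl1 and Spock2 held no match to any of these motifs, and no window of the 7 held a CArG box (1.5% of all windows). Such a match describes letters only and is not a binding site.

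Denervated bladders differed from sham bladders in 5 of the 8 genes, and not all in the same direction. Sparc and Fstl1 rose, Sparcl1, Smoc1 and Spock2 fell, and Smoc2, Spock1 and Spock3 were not called. A call means an adjusted p under 0.05 in limma, with Benjamini-Hochberg adjustment over all 18166 genes. By the same rule 28.7% of all genes were called, 11.9% higher and 16.9% lower. The 5 called members were among the 6 that were brighter than the median gene. Calls were more frequent among such bright genes than over all genes. A fit of them alone called 1561 higher and 2813 lower, beside 2153 and 3063 in the fit of all 18166 genes. Fewer genes entered the fit of bright genes, so its smaller counts were larger shares of the genes fitted. The median change over the 8 genes was -0.079 on the log2 scale, beside -0.037 over all genes. Denervated replicate 2 lay apart: on the first principal component over all genes it stood at -5.84, between the sham arrays (-22.5 or below) and the rest of its group (25.9 or above). Without it the same numbers of members were called, 2 higher and 3 lower, while 14.4% of all genes were called higher and 20.2% lower. In whole tissue, fewer cells of a type and less RNA per cell cannot be told apart.

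**Figure D1:**
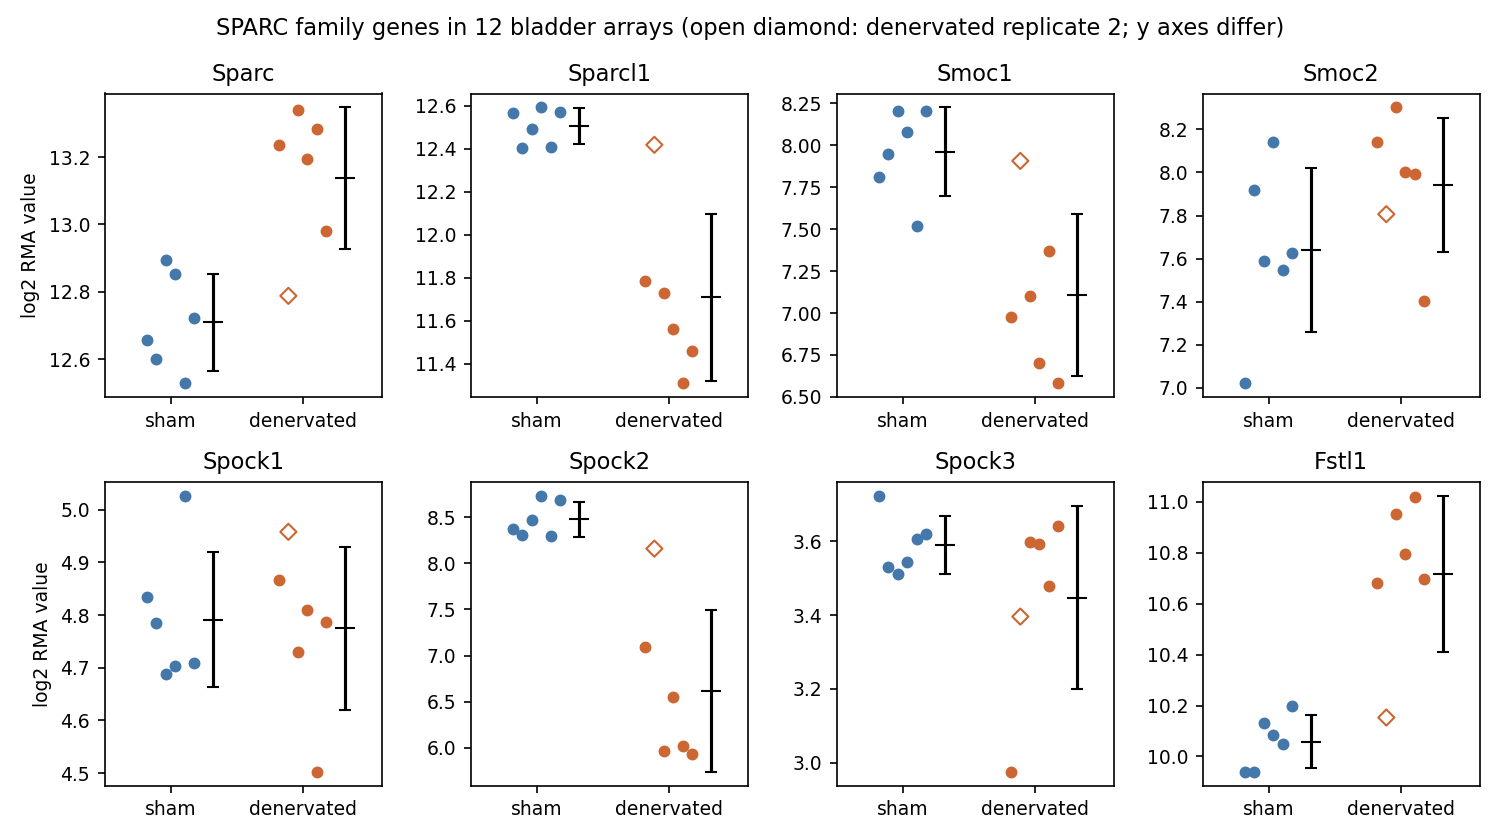
Deposited log2 RMA values of the 8 genes on each of the 12 arrays, with sham arrays on the left and denervated arrays on the right of each panel; bars give the mean and SD of 6 arrays, and the y axes differ. Denervated replicate 2, the open diamond, lies within or next to the sham values for Sparc, Sparcl1, Smoc1, Spock2 and Fstl1, where the other 5 denervated arrays lie outside them.

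Sparc, the founding member and a collagen-binding protein made by fibroblasts and endothelium, was among the brightest genes on the arrays. Its values (log2 RMA) in sham arrays had a lowest of 12.53, a median of 12.69 and a highest of 12.89, and in denervated arrays a lowest of 12.79, a median of 13.22 and a highest of 13.34. Sparc rose by 0.43 ± 0.10 on the log2 scale, or 1.35-fold (SE, n = 6 per group; 95% interval 0.21 to 0.64; limma adjusted p = 0.00623). The groups overlapped through denervated replicate 2 (12.79), and the other 5 denervated arrays, from 12.98 to 13.34, lay above every sham array. Tested against a change of 1.2-fold rather than no change, Sparc was not called (limma treat adjusted p = 0.425).

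Fstl1, the follistatin-like member, moved the same way. It stood between 9.94 and 10.20 in sham arrays (median 10.07) and between 10.15 and 11.02 in denervated arrays (median 10.75). Fstl1 rose by 0.66 ± 0.12 or 1.58-fold (SE, n = 6 per group; 95% interval 0.39 to 0.92; limma adjusted p = 0.00165). Denervated replicate 2 (10.15) lay inside the sham range, and the other 5 denervated arrays began at 10.68. Without that array the difference was 0.77 for Fstl1 and 0.50 for Sparc.

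Sparcl1, whose product hevin resembles SPARC in its follistatin-like and calcium-binding domains, moved the opposite way. Sham values lay close together, from 12.40 to 12.59 with a median of 12.53. Denervated values ran from 11.31 to 12.42 with a median of 11.65. Sparcl1 fell by 0.80 ± 0.15 on the log2 scale, 1.74-fold (SE, n = 6 per group; 95% interval -1.11 to -0.48; limma adjusted p = 0.00160). The highest denervated value was again that of replicate 2 (12.42), inside the sham range, and the other 5 lay at 11.78 or below.

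Spock2, which encodes the proteoglycan testican-2, showed the largest change of the family. Its values were 8.30 to 8.73 in sham arrays (median 8.42) and 5.93 to 8.16 in denervated arrays (median 6.29). It fell by 1.86 ± 0.32, or 3.63-fold (SE, n = 6 per group; 95% interval -2.55 to -1.16; limma adjusted p = 0.00112). This was the 13th largest fall of the 18166 genes. Spock2 was the one member whose groups did not overlap, as was the case for 13.3% of all genes (7.59% with the denervated arrays lower and 5.76% with them higher). Denervated replicate 2 (8.16) was nearest to the sham arrays, replicate 1 followed at 7.09, and the other 4 lay between 5.93 and 6.56. Without replicate 2 the difference was -2.17.

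The other testicans were dim. Spock1, which encodes testican-1, stood between 4.69 and 5.03 in sham arrays and between 4.50 and 4.96 in denervated arrays, below the array medians of 5.82 to 5.90. Its difference was -0.016 with a 95% interval of -0.19 to 0.16 (limma adjusted p = 0.913), and its sign turned without sham replicate 5 (0.031) or denervated replicate 5 (0.039). Spock3, which encodes testican-3, stood between 3.51 and 3.72 in sham arrays and between 2.98 and 3.64 in denervated arrays. Its difference was -0.14 with a 95% interval of -0.36 to 0.078 (limma adjusted p = 0.337). The deposited table has no detection calls, so whether these 2 probe sets lay above background is unknown.

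The SMOC genes parted as well. Smoc1 stood between 7.52 and 8.20 in sham arrays (median 8.02) and between 6.58 and 7.91 in denervated arrays (median 7.04). It fell by 0.86 ± 0.20, or 1.81-fold (SE, n = 6 per group; 95% interval -1.29 to -0.42; limma adjusted p = 0.00634). Denervated replicate 2 (7.91) lay among the sham arrays and the other 5 at 7.37 or below, under the lowest sham array. Against a change of 1.2-fold Smoc1 was not called (limma treat adjusted p = 0.0704). Smoc2 had overlapping groups, with 7.02 to 8.14 in sham arrays (median 7.61) and 7.41 to 8.30 in denervated arrays (median 8.00). Its difference of 0.30 ± 0.18 was not called (95% interval -0.086 to 0.69; limma adjusted p = 0.241), and the interval includes both no change and a rise as large as that of Fstl1. The difference was 0.18 without sham replicate 1 and 0.41 without denervated replicate 6, and was not called in either case.

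**Figure D2:**
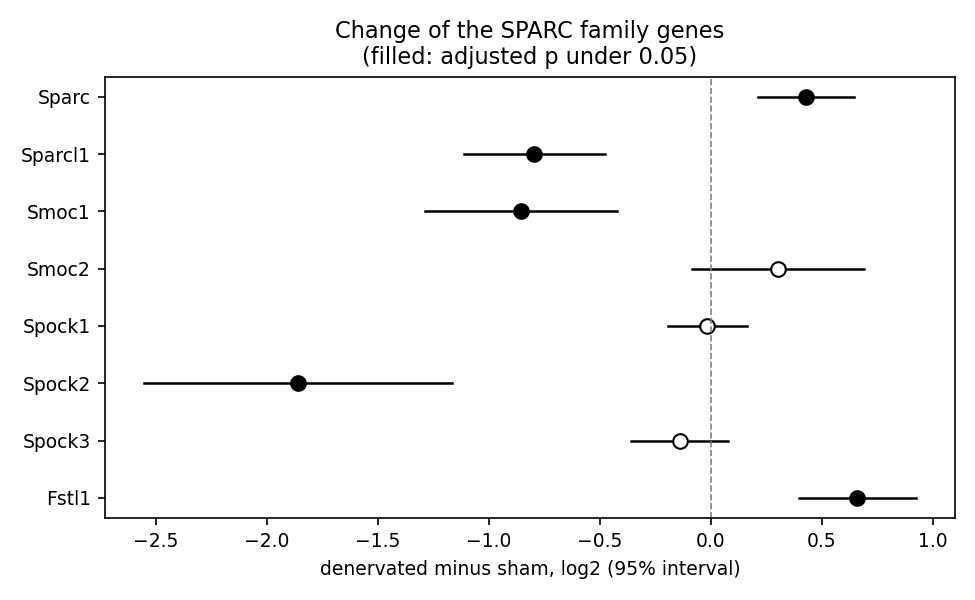
Difference between the means of the 6 denervated and 6 sham arrays (log2, x axis) for each of the 8 genes, with its 95% interval; filled points passed the threshold of 0.05 on the adjusted p. Fstl1 (0.66) and Sparc (0.43) lie to the right of 0, and Sparcl1 (-0.80), Smoc1 (-0.86) and Spock2 (-1.86) to the left, while the intervals of Smoc2, Spock1 and Spock3 include 0.

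To ask whether close relatives changed by different amounts, the difference between 2 members within each array was compared between the groups for 5 pairs. This compares changes and says nothing of which gene was more abundant. The Sparc minus Sparcl1 difference was higher by 1.22 ± 0.23 in denervated arrays (SE, n = 6 per group; two-sided exact permutation test, p = 0.00433, adjusted over 5 pairs p = 0.0108). All 6 denervated arrays lay above the sham mean, by 1.25 to 1.77 in 5 of them and by 0.17 in replicate 2, which was below the highest sham array (0.20). For Smoc1 minus Smoc2 the difference was -1.16 ± 0.26 (exact permutation p = 0.00866, adjusted p = 0.0108), again on the same side of the sham mean in 6 of 6 denervated arrays. The groups overlapped, with replicate 2 at -0.22 from the sham mean and sham arrays from -0.38 to 0.47.

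Among the testicans, Spock2 stood apart from both others. Spock1 minus Spock2 was higher by 1.84 ± 0.34 in denervated arrays, with no overlap between the groups (exact permutation p = 0.00216, the smallest this design can give; adjusted p = 0.0108). Spock2 minus Spock3 differed by -1.72 ± 0.43, on the same side of the sham mean in 6 of 6 denervated arrays (exact permutation p = 0.00649, adjusted p = 0.0108). Here too the groups overlapped, with replicate 2 at -0.13 and the lowest sham array at -0.24. Spock1 minus Spock3 differed by 0.13 ± 0.14 (exact permutation p = 0.446, adjusted p = 0.446), and by 0.013 without denervated replicate 1, in which Spock3 was lowest. Both partners of Spock2 were dim, as given above, and how far their probe sets could have shown a fall was not tested.

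**Figure D3:**
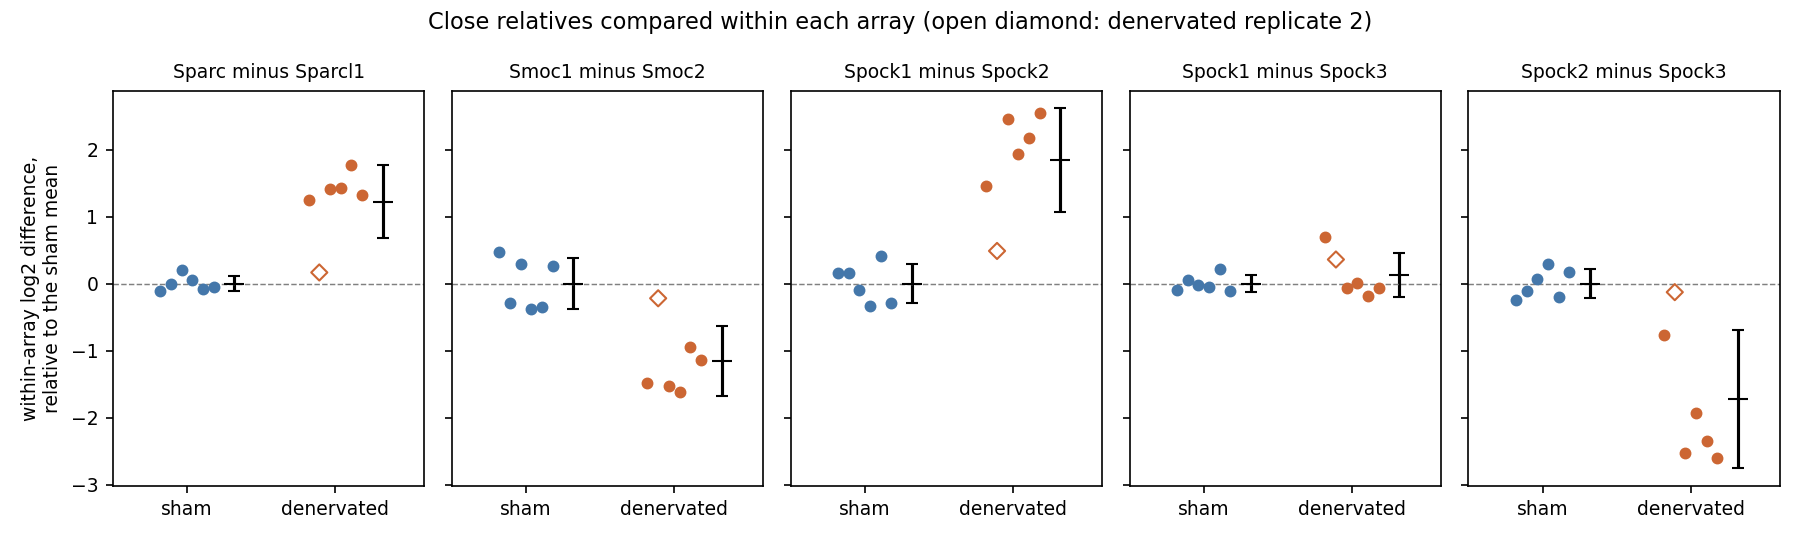
Within-array log2 difference between 2 relatives, relative to its mean in the sham arrays (y axis), on the 6 sham and 6 denervated arrays for each of 5 pairs, with mean and SD. Sparc minus Sparcl1 and Spock1 minus Spock2 lie higher in denervated arrays, Smoc1 minus Smoc2 and Spock2 minus Spock3 lower, and replicate 2 (open diamond) is nearest to the sham arrays in these 4 pairs.

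Correlations between members were taken across the 12 arrays, on which all members share the array and the group difference. Sparcl1 and Spock2, which both fell, correlated with Pearson's r = 0.97. Of 18165 other genes Spock2 ranked 151st in likeness to Sparcl1. Their deviations from the group means, which leave the group difference out, correlated with r = 0.90 over 12 arrays and with r = 0.62 without denervated replicate 2. For Smoc1, which fell too, the deviations correlated with those of Sparcl1 at r = 0.64 and with those of Spock2 at r = 0.64, and without denervated replicate 2 at 0.058 and 0.11. Sparc and Fstl1, which both rose, correlated with r = 0.93, and their deviations with r = 0.80 (0.60 without that array). Fstl1 ranked 191st of 18165 genes in likeness to Sparc.

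The genes most like each called member over the 12 arrays were as follows, with r of the values given first and r of the deviations from the group means after it. Sparc was most like Col1a2, a chain of type I collagen (0.99 and 0.97), the histone gene H2ac12 (0.98 and 0.96) and the metalloprotease gene Adam19 (0.98 and 0.95). Fstl1 was most like Fxyd5, an ion pump regulator (0.99 and 0.96), the metal ion transporter gene Slc39a14 (0.99 and 0.96) and Fbn1, which encodes fibrillin-1 (0.98 and 0.95). Without denervated replicate 2 the r of the deviations was, in the same order, 0.97, 0.94 and 0.92 for Sparc and 0.85, 0.92 and 0.83 for Fstl1. The changes of these genes ran from 0.58 (Col1a2) to 1.30 (Fxyd5). Their direction is that of the member because they were chosen on values that hold the group difference.

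Sparcl1 was most like the small heat shock protein gene Hspb8 (0.997 and 0.992), the kinase anchor gene Akap6 (0.996 and 0.987) and the ubiquitin ligase gene Nedd4l (0.995 and 0.984). Spock2 was most like the kinase gene Wnk2 (0.995 and 0.984), the mitochondrial gene Chchd10 (0.99 and 0.97) and the peroxisomal carrier gene Slc25a17 (0.99 and 0.97). Smoc1 was most like Adgrd1, an adhesion receptor (0.96 and 0.90), Prune1 (0.95 and 0.87) and the protocadherin gene Pcdh9 (0.94 and 0.86). Without denervated replicate 2 the r of the deviations was 0.97, 0.95 and 0.95 for Sparcl1, 0.94, 0.90 and 0.93 for Spock2 and 0.77, 0.74 and 0.80 for Smoc1. The changes of these genes ran from -0.19 (Slc25a17) to -1.75 (Wnk2), with the direction again fixed by the choice. For the members that were not called the closest genes reached r of 0.85 to 0.91. They were Ddx25, Epn1 and Pofut1 for Smoc2, Lrriq3, Npy5r and Tmem258l4 for Spock1, and Ybx3, Idh3a and Etf1 for Spock3, and none of these 9 was called.

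Genes around the family were described from 6 lists, whose counts stand beside 11.9% of all genes called higher and 16.9% called lower. The lists were chosen with earlier results of these data known, so their counts are descriptions and not tests. All 8 collagens and all 9 receptors and partners measured were brighter than the median gene, where calls were more frequent than over all genes. Of the 8 collagen chains that SPARC binds or that accompany such chains, 8 rose, with a median change of 0.89, beside -0.037 over all genes. The basement membrane chains Col4a1 (1.43 ± 0.19) and Col4a2 (1.27 ± 0.18) and the fibrillar chain Col5a2 (1.27 ± 0.20) changed most. Of 9 genes listed as receptors or matrix partners of SPARC or hevin, 6 rose and 3 were not called (median change 0.51). Those that rose included Vcam1, an adhesion molecule that SPARC can bind (0.80 ± 0.15), and Itga5, an integrin chain (0.74 ± 0.14). Spp1, which encodes osteopontin, was among the 6 too and had the largest rise of all genes (5.03 ± 0.36). Whether its product binds SPARC or hevin was not examined here. Stab1, the scavenger receptor that takes up SPARC, was not called (0.17 ± 0.15).

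Among 20 growth factors and receptors whose signals SPARC, SMOC or FSTL1 proteins modulate, 6 rose, 5 fell and 9 were not called (median change -0.042). Of the 20, 19 were brighter than the median gene, where calls were more frequent than over all genes. Inhba, the gene of an activin subunit (1.59 ± 0.29), Pdgfrb, a receptor of platelet-derived growth factor (1.22 ± 0.13), and Tgfb1 (1.13 ± 0.10) rose most. On the side of the bone morphogenetic proteins, the receptor gene Bmpr1a (-0.40 ± 0.095) and the ligand genes Bmp4 (-0.40 ± 0.14) and Bmp7 (-0.34 ± 0.12) fell, whereas Bmpr1b rose by 1.07 ± 0.22. Dip2a, proposed as a receptor of FSTL1, was not called (-0.045 ± 0.060).

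Of 11 proteases that cleave SPARC or hevin or that some testicans can inhibit, 9 rose, 1 fell and 1 was not called (median change 0.86). The gelatinase gene Mmp9 (1.72 ± 0.22), the collagenolytic cathepsin gene Ctsk (1.34 ± 0.18) and the aggrecanase gene Adamts4 (1.09 ± 0.19) rose most, and the membrane-bound Mmp16 fell by 1.02 ± 0.15. Proteins that share a domain with the family without belonging to it made up the last lists. Of 7 with follistatin domains 1 rose, Fstl3, an inhibitor of activin (0.57 ± 0.19), and 6 were not called (median change 0.12). Of 11 with a thyroglobulin domain, which SMOC proteins and testicans also carry, 4 rose, 3 fell and 4 were not called (median change 0.087). Igfbp4 (0.90 ± 0.059) and the basement membrane genes Nid1 (0.70 ± 0.15) and Nid2 (0.68 ± 0.17) rose most, and Igfbp3 (-1.49 ± 0.23), Igfbp5 (-0.80 ± 0.23) and the epithelial Epcam (-0.62 ± 0.15) fell. Without denervated replicate 2 the follistatin list had 2 genes higher.

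**Figure D4:**
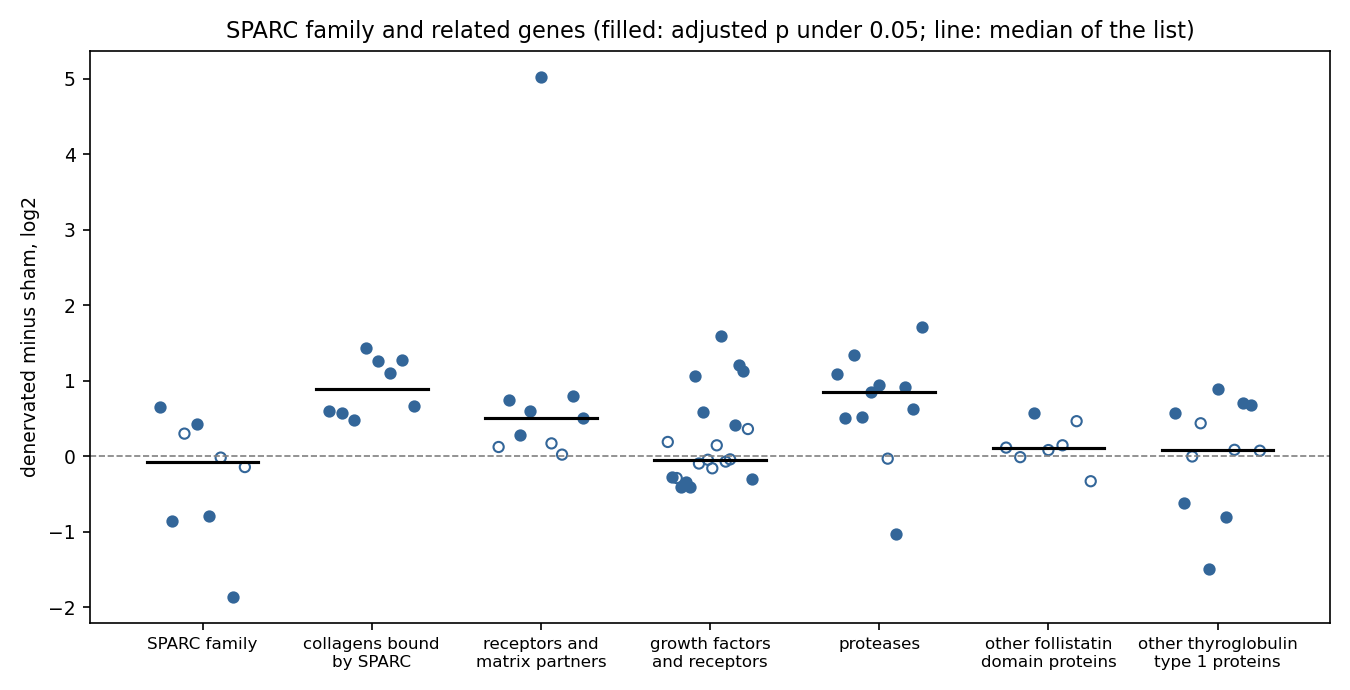
Difference between denervated and sham means (log2, y axis) of every measured gene of the SPARC family and of 6 lists of related genes; filled points passed the threshold of 0.05 on the adjusted p, and the line is the median of the list. Points of the collagen list all lie above 0, those of the SPARC family lie on both sides, and the highest point is Spp1 at 5.03.

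Markers of several cell types differed between the groups, where 11.9% of all genes were called higher and 16.9% lower. These shares are over all genes, and calls were more frequent among genes brighter than the median gene. The labels describe the tissue as over 95 percent smooth muscle, and all 8 measured smooth muscle markers were brighter than the median gene, as were all 11 measured urothelial markers. Of the smooth muscle markers 5 fell and 1 rose. Their mean log2 value was 11.70 to 11.90 in sham and 11.06 to 11.75 in denervated arrays, the highest being replicate 2. Of 6 Schwann cell markers 5 fell, with means of 7.94 to 8.16 and 6.59 to 7.54. All 11 urothelial markers fell, with means of 10.73 to 10.96 and 9.91 to 10.28. The part of these declines in those of Sparcl1, Smoc1 and Spock2 was not tested.

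Markers of other cell types rose in part, were split or were mostly not called. All 9 fibroblast, 8 endothelial and 10 macrophage markers measured were brighter than the median gene. Of the 9 fibroblast markers 3 rose, 0 fell and 6 were not called. Their means were 10.83 to 11.08 in sham and 10.81 to 11.49 in denervated arrays, so the groups overlapped. Without replicate 2, the lowest, 6 rose. Of 8 endothelial markers 5 rose and 0 fell (8.15 to 8.30 and 8.45 to 8.72), and of 10 macrophage markers 9 rose and 0 fell (8.77 to 9.02 and 9.81 to 10.48). Pericyte markers were split, with 2 of 8 higher and 2 lower, and neuron and axon markers had 1 of 10 higher and 3 lower. Of 6 adipocyte markers 1 fell (0 without denervated replicate 2), and of 5 mesothelial markers 1 rose and 2 fell. The 2 that fell, Upk3b and Krt19, were also counted among the urothelial markers. Col1a1, which rose, was counted both as a collagen and as a fibroblast marker, and Pdgfrb both as a growth factor receptor and as a pericyte marker. The deposited scale has no zero, so no marker can be called absent. The part of any of these cell types in the rise or fall of any member was not tested.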

How the data were processed

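The authors deposited 1 table of log2 values, with 36685 probe sets and 12 arrays. The submitters' processing notes name RMA, a method of background correction, quantile normalization and probe summary, and Affymetrix Expression Console (version 1.4.1.46). A genome build is not given in the sources used here. Precision is limited by the number of arrays. Groups came from the sample titles. Probe sets with 1 symbol in the platform's gene table (18511) gave 18166 genes, the highest mean over the 12 arrays standing for a gene with several. Denervated and sham arrays were compared with limma 3.58.1 in R 4.3.3 (lmFit, eBayes, two-sided), with p-values adjusted by Benjamini-Hochberg across the 18166 genes and no filter. The procedure was tested on simulated data with independent genes, few of them changed, and no outlying array. The simulation thus differed from these arrays and does not show how the procedure does on them. Members and gene lists were chosen with earlier results of these data known. The rule named the 8 members, up to 3 genes in each direction per list and the 3 genes most correlated with each member over the 12 arrays; Stab1, Dip2a and Bmpr1b, and the list counts without denervated replicate 2, were added after the data were seen. Alternatives covered normalization, filters, tests, probe set choice, replicate blocks and leaving out each array. The labels used here name no batch or scan date.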

Additional observations from a re-analysis of the deposited data

Results flagged for a closer look

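Spock3 stood at 2.98 in denervated replicate 1, apart from the other 5 denervated arrays, which lay between 3.40 and 3.64. The gap to the nearest of them took up 0.63 of the range of the group. Of the 16 sets of 6 values examined for such gaps (8 genes in 2 groups) this was the 1 found, and chance alone gives such a gap in about 1 set in 20. Without this array the Spock3 difference was -0.047.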

How the results depend on the processing

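All 8 members kept their direction and their side of the threshold under further quantile normalization, median centring, filters on dim genes (under which Spock1 and Spock3 were left out and have no value), trend and robust settings, array weights, the exact rank-sum test and averaging probe sets per gene. The test against a 1.2-fold change called 756 genes higher and 496 lower and 1 member higher, since the calls of Sparc (0.43, adjusted p = 0.425) and Smoc1 (-0.86, adjusted p = 0.0704) were lost. Leaving out 1 array at a time moved Spock1 between -0.053 and 0.039, so its sign turned, and left every other member's call and direction in place: Sparc 0.39 to 0.50, Sparcl1 -0.94 to -0.72, Smoc1 -1.02 to -0.75, Spock2 -2.17 to -1.72 and Fstl1 0.60 to 0.77, the largest values coming without denervated replicate 2. Same-numbered sham and denervated arrays did not deviate together (r of -0.11 to 0.10, over 0.1 in 1 of 6 pairs, with 1 array matching its own number best). With the number as a replicate block in limma 1984 genes were called higher and 2476 lower and the same 5 members were called. In the pair comparisons, sign flips within the replicate block, whose smallest possible p is 0.0312, gave adjusted p of 0.0521 for Sparc minus Sparcl1 (1.22), Spock1 minus Spock2 (1.84) and Spock2 minus Spock3 (-1.72) and 0.0781 for Smoc1 minus Smoc2 (-1.16), so their calls were lost. These 4 pairs kept their calls under further quantile normalization, averaging of probe sets and without any single array. Without a detection call, signal over background is unknown for Spock1 and Spock3.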

Other observations

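Relations among the members within the groups rested in part on denervated replicate 2. Over 12 arrays the deviations of Sparc and Sparcl1 from their group means correlated with r = -0.45, and without that array with r = 0.38. For Sparc and Smoc1 r went from -0.059 to 0.80, for Smoc1 and Spock2 from 0.64 to 0.11, and for Smoc1 and Fstl1 from -0.35 to 0.69. These are descriptions of arrays that share groups and normalization, and no test was made of them.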
